A study of Mus musculus with 9 samples.

Results

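Sp100, Sp110 and Sp140 are 3 neighbouring mouse genes of the interferon response, and the peaks of the histone mark H3R2me2a around them were described here in 6 libraries. The peaks were chosen by position: every peak with its summit in the 1 Mb segment chr1:85000001-86000000 (build mm10) that holds the 3 genes, with the 5 Mb on either side as flanks. The segment held 1732 of the 1541235 peaks that the 6 lists had on chromosomes 1 to 19 and X, and the flanks held 6400. The segment drew attention because its peaks were dense and high in these same lists. Its density and heights are therefore given as a description, which no test supports. The exact tests between genotypes further on use these same values and are part of that description.

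H3R2me2a is the asymmetric dimethylation of arginine 2 of histone H3, placed by the enzyme PRMT6. The mark was mapped by ChIP-seq, which sequences the DNA that an antibody pulls down with chromatin, in mouse bone marrow cells, named leukemia cells in the design text of the series. The 3 genotypes were wild type (WT), Prmt6KO (cells that lack Prmt6) and Igf2bp2KO (cells that lack Igf2bp2, a gene for a protein that binds m6A-modified RNA), with 2 H3R2me2a libraries each. All were grown with interleukin 3, interleukin 6 and stem cell factor. The labels do not say how either gene was deleted, which strain or age the mice had, nor whether replicates are different mice or different cultures, and p-values then measure the spread between libraries, which may be technical. Peak lists cannot show whether a gene is deleted or which cell type is present, so the genotype and bone marrow labels were not checked here. The 3 input libraries, 1 per genotype, were not analysed here.

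SP100, SP110 and SP140 belong to 1 family of chromatin-binding nuclear proteins that carry a SAND domain, a fold that binds DNA, and in several members a PHD finger and a bromodomain, which read histone tails. SP100 is a structural component of PML nuclear bodies, SP110 is a nuclear body protein whose gene lies in a mouse locus for susceptibility to tuberculosis, and SP140 is a chromatin reader of immune cells that holds back type I interferon responses in mice. Transcription of the family rises after interferon, through transcription factors that bind paired GAAA blocks in promoters. Mouse chromosome 1 also carries a repeat cluster of Sp100-related sequence, whose copy number differs between mouse strains.

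The lists differed in length far more than in background. They held 162454 and 133960 peaks in WT, 812414 and 430225 in Prmt6KO, against 961 and 1221 in Igf2bp2KO. A summit height is given in fragments, the number of DNA fragments stacked at the highest point of a peak. The background, the number of fragments expected at any base, was lowest in Prmt6KO, at 0.736 and 1.21; it was 1.46 and 1.44 in the WT lists and 1.45 and 1.33 for Igf2bp2KO. The smallest summit had 4 fragments in both WT lists, 2 and 3 in the Prmt6KO lists, and 8 and 7 in the Igf2bp2KO lists. A position without a peak in an Igf2bp2KO list could therefore still hold several fragments. The peak density of WT replicate 1 on chromosome X was 0.182 of that on its other chromosomes, against 0.774 to 1.24 in the other 5 lists, and values are given per library.

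Sp110 lies at chr1:85570735-85610850, Sp140 at chr1:85587491-85645040 and Sp100 at chr1:85649948-85709998, in RefSeq gene models of GRCm38.p6, which is the build mm10. Sp110 and Sp140 overlap over 23.4 kb, and 4.91 kb separate Sp140 from Sp100. The gene table used gives gene ends without exons, so peaks are placed by gene and not by exon or intron. RefSeq promoter windows, running from 250 bases before to 50 bases after a transcript start, were matched for all 3 genes. They gave 2 windows for Sp110 on the minus strand, 1 for Sp140 and 2 overlapping windows for Sp100, both on the plus strand. All are written 5′ to 3′ on the strand of the gene.

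The windows of Sp110 are shown because they lie near the positions of the family with peaks in 5 of the 6 libraries, described further on, and hold paired GAAA blocks in the first and a tandem repeat in the second. The first, chr1:85598761-85599060, has in capitals the letters that read, on the opposite strand, as GAAA, any 3 bases and GAAA, at bases 260 to 270 of the window. The second, chr1:85603842-85604141, has in capitals a run of 53 bases that stands there 2 times in direct succession, at bases 93 to 145 and 146 to 198.
Sp110 first promoter: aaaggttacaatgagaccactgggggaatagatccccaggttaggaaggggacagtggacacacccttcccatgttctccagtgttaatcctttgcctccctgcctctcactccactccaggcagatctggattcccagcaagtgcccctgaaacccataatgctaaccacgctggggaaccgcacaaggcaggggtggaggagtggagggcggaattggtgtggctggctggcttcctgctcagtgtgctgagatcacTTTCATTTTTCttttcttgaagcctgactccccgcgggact
Sp110 second promoter: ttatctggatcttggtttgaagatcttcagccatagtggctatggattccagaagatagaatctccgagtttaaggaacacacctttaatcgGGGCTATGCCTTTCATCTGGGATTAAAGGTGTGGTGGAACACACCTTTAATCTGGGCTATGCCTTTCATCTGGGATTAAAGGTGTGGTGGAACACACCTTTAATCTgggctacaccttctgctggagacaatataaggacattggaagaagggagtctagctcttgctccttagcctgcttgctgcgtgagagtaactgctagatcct

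Exact repeats of 30 bases or more were present in 0.618% of the 32851 promoter windows of the mouse table. Of the 241 different 20-base words of the second Sp110 promoter, 60.6% also occurred in promoters of genes outside the segment. The first Sp110 promoter shared no 20-base word with any other promoter.

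The promoters of Sp140 and Sp100 are shown with their closest counterparts, since each has a near copy elsewhere in the segment. Capitals mark the bases covered by 20-base words that both windows of a pair hold on either strand. Sp140 at chr1:85600453-85600752 is paired with A530032D15Rik at chr1:85109804-85110103 (minus strand), and Sp100 at chr1:85649764-85650063, the second of its windows, with Gm7609 at chr1:85199361-85199660 (plus strand).
Sp140 promoter: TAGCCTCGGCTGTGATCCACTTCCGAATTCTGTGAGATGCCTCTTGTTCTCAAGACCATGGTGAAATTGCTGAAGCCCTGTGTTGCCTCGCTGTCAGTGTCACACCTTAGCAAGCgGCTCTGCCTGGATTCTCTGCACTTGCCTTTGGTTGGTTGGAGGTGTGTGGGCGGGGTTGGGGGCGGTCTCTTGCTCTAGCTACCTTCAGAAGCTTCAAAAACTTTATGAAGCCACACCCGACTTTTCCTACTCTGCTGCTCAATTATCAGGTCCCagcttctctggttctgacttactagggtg
A530032D15Rik promoter: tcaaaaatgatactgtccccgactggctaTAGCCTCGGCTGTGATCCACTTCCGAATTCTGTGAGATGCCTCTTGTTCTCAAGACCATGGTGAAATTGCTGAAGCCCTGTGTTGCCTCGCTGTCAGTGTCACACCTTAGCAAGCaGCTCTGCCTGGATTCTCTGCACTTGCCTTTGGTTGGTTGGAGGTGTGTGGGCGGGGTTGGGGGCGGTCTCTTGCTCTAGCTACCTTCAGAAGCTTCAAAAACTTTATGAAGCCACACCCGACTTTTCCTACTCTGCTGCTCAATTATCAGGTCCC
Sp100 second promoter: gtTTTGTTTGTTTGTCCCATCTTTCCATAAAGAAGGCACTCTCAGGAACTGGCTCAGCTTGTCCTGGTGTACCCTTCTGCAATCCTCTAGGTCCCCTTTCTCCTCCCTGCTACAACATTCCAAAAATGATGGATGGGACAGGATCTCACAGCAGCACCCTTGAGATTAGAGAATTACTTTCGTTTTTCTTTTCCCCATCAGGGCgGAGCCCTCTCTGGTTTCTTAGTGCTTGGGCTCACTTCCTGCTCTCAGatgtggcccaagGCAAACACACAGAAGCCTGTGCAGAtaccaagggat
Gm7609 promoter: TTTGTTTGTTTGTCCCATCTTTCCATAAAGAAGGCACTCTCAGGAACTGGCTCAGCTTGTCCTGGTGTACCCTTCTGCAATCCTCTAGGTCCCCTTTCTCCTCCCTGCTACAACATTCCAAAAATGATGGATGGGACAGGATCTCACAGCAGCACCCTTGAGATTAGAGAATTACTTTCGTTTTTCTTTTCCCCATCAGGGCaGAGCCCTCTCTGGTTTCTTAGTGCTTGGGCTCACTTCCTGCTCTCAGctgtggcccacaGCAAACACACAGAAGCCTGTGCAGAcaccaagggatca

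The capitals cover 90% of the Sp140 window and 91.3% of the Sp100 window. In 20-base words, Sp140 shared 82.6% with A530032D15Rik, and the second Sp100 window shared 77.2% with Gm7609. A530032D15Rik and C130026I21Rik, another gene of the segment, shared 87.2%. Over all promoter windows, 7.21% had 75% or more of their words in the promoter of another gene, overlapping windows included. The promoters of Cab39 and Itm2c, at the far end of the segment, shared no word with another promoter, and that of Gpr55 shared 0.356% of its words. The promoter of Gm2427, to the left of Sp110 where peaks are dense, shared no word either, like the first Sp110 promoter. Reads from near-identical copies can be placed at either copy. What part such copies have in the peak numbers and heights below was not tested.

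Both spacings of the paired GAAA blocks known from interferon-responsive promoters, GAAA and GAAA with any 2 bases (the narrower) or any 3 bases (the wider) between them, were searched on both strands of every window. The wider spacing was found in the first Sp110 window, just past the transcript start, and in both Sp100 windows, where the letters on the opposite strand read GAAAAACGAAA. Gm7609 held the same letters at bases 176 to 186. In the Sp140 window and in the second Sp110 window neither spacing was found, which says no more than that these letters are not there. Among all windows, 2.75% held the wider spacing, 3.44% the narrower and 5.99% either. In the promoters of the interferon and nuclear body genes listed further on, 20 of 58 (34.5%) held either spacing.

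The promoters differed in the H3R2me2a peaks that overlapped them. The Sp140 window was overlapped by peaks of 12 and 9 fragments in WT and of 9 and 11 fragments in Prmt6KO, and by no peak in the Igf2bp2KO lists. The summits of these peaks lay outside the window, at 85601165 and 85601222 in WT and at 85600297 and 85601206 in Prmt6KO. The heights are thus those of whole peaks and not of the window. The Sp140 window was the 1 promoter of the segment with a peak in all 4 of the WT and Prmt6KO libraries, where 1.91% and 1.15% of all promoter windows had a peak in the WT lists and 14.0% and 4.95% in the Prmt6KO lists. Its near copy at A530032D15Rik had peaks of 3 and 9 fragments in Prmt6KO and none in WT. The first Sp110 window had a peak of 7 fragments in WT replicate 2 and of 2 fragments in Prmt6KO replicate 1. The second had peaks of 8 fragments in WT replicate 1 and of 5 and 9 fragments in Prmt6KO. At Sp100, the first window had no peak in any list and the second had a single peak of 3 fragments, in Prmt6KO replicate 1. The replicates of WT thus differed at both Sp110 windows and were alike at Sp140.

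The segment as a whole held 356 and 298 summits in WT, 566 and 458 in Prmt6KO, with 38 and 16 in Igf2bp2KO. Per Mb, this was 5.30 and 5.97 times the density of the flanks in WT, 1.62 and 2.76 times in Prmt6KO, against 8.64 and 6.67 times in Igf2bp2KO. Among 2641 windows of 1 Mb in the genome, the segment ranked 3 and 4 by summit number in WT, 5 and 4 in Prmt6KO, with 6 and 16 in Igf2bp2KO. Each genotype therefore had the segment among its densest windows, although the lists differ widely in length.

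**Figure D1:**
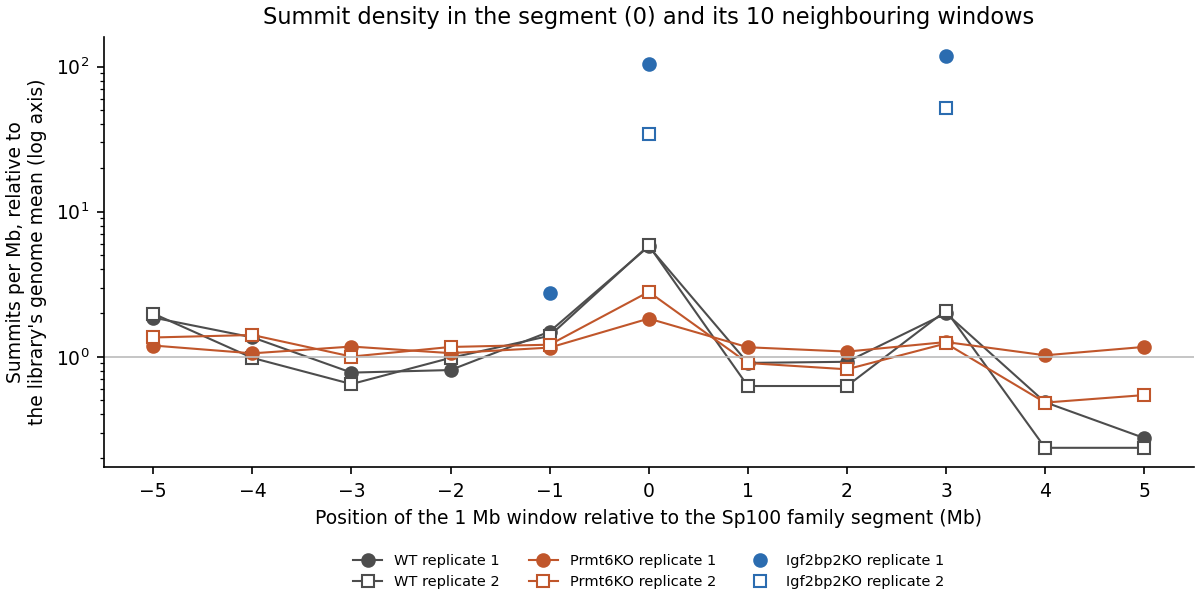
Summits per Mb, relative to the mean of each library over chromosomes 1 to 19 and X (log axis), for the segment (position 0) and the 5 windows of 1 Mb on either side; each marker is 1 library, and windows without a summit have no marker. The WT libraries stand at 5.77 and 5.85 in the segment, and a second rise, 3 Mb further on, is present in all 6 libraries.

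The flanks hold another dense window, from 88 to 89 Mb, which includes the Ugt1a genes. It accounted for 43 of the 44 flank summits in Igf2bp2KO replicate 1 and for all 24 in Igf2bp2KO replicate 2. Without it, the segment stood 5.84 and 6.82 times above the flanks in WT, 1.64 and 2.83 times in Prmt6KO, against 342 and 153 times in Igf2bp2KO; 1 summit was added to both counts in the last of these libraries, whose flanks then held none. The flank density of Igf2bp2KO thus rests on that window.

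Compared on the log2 scale, the relative density was lower by 1.41 in Prmt6KO than in WT, a factor of 2.66, with SDs of 0.55 and 0.12 and no overlap between the libraries (n = 2 each). The two-sided exact permutation test gave p = 0.333, the smallest that 2 libraries against 2 allow. The gap was smaller under both peak thresholds: it was -0.87 for summits at 6 times the background or more (p = 0.667, exact permutation) and -0.13 for peaks with a q of 0.05 or below (p = 0.667, exact permutation). Both thresholds gave equal counts in the segment and flanks in every WT and Prmt6KO library except Prmt6KO replicate 1. That library had 178 summits in the segment and 304 in the flanks at 6 times the background, against 67 and 41 at that q. The step from -0.87 to -0.13 thus rests on it alone. The number of peaks at that q was 88 and 60 in WT and 67 and 91 in Prmt6KO, so that the genotypes overlapped. In Igf2bp2KO the relative density was higher than in WT by 0.43 on the log2 scale, with an SD of 0.26 (p = 0.333, exact permutation, n = 2 each). It turned to -1.43 for summits at 6 times the background and rose to 5.18 without the window from 88 to 89 Mb, so its direction depends on these choices. Both comparisons share the WT libraries.

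In WT and Prmt6KO the segment also had a larger share of tall peaks than the genome. Summits at 6 times the background of their library or more made up 24.7% and 20.1% of its WT peaks, against 3.05% and 2.03% of WT peaks in the genome. In Prmt6KO they made up 31.4% and 19.9%, against 7.29% and 1.34%. In Igf2bp2KO the shares were 94.7% and 100% against 99.5% and 90.7%, where the lowest summits listed anywhere, of 8 and 7 fragments, were already near 6 times the background.

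The tallest summit of the segment had 20 and 13 fragments in WT, 14 and 15 in Prmt6KO, with 18 and 17 in Igf2bp2KO. Relative to the background of each library these were 13.7 and 9.04 times in WT, 19.01 and 12.4 times in Prmt6KO, against 12.4 and 12.7 times in Igf2bp2KO. The log2 difference to WT was 0.47 for Prmt6KO (p = 0.667) and 0.18 for Igf2bp2KO (p = 1), by two-sided exact permutation tests of 2 against 2 libraries. The genotypes overlapped in both comparisons. In fragments, with no division by background, the difference of Prmt6KO turned to -0.15.

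**Figure D2:**
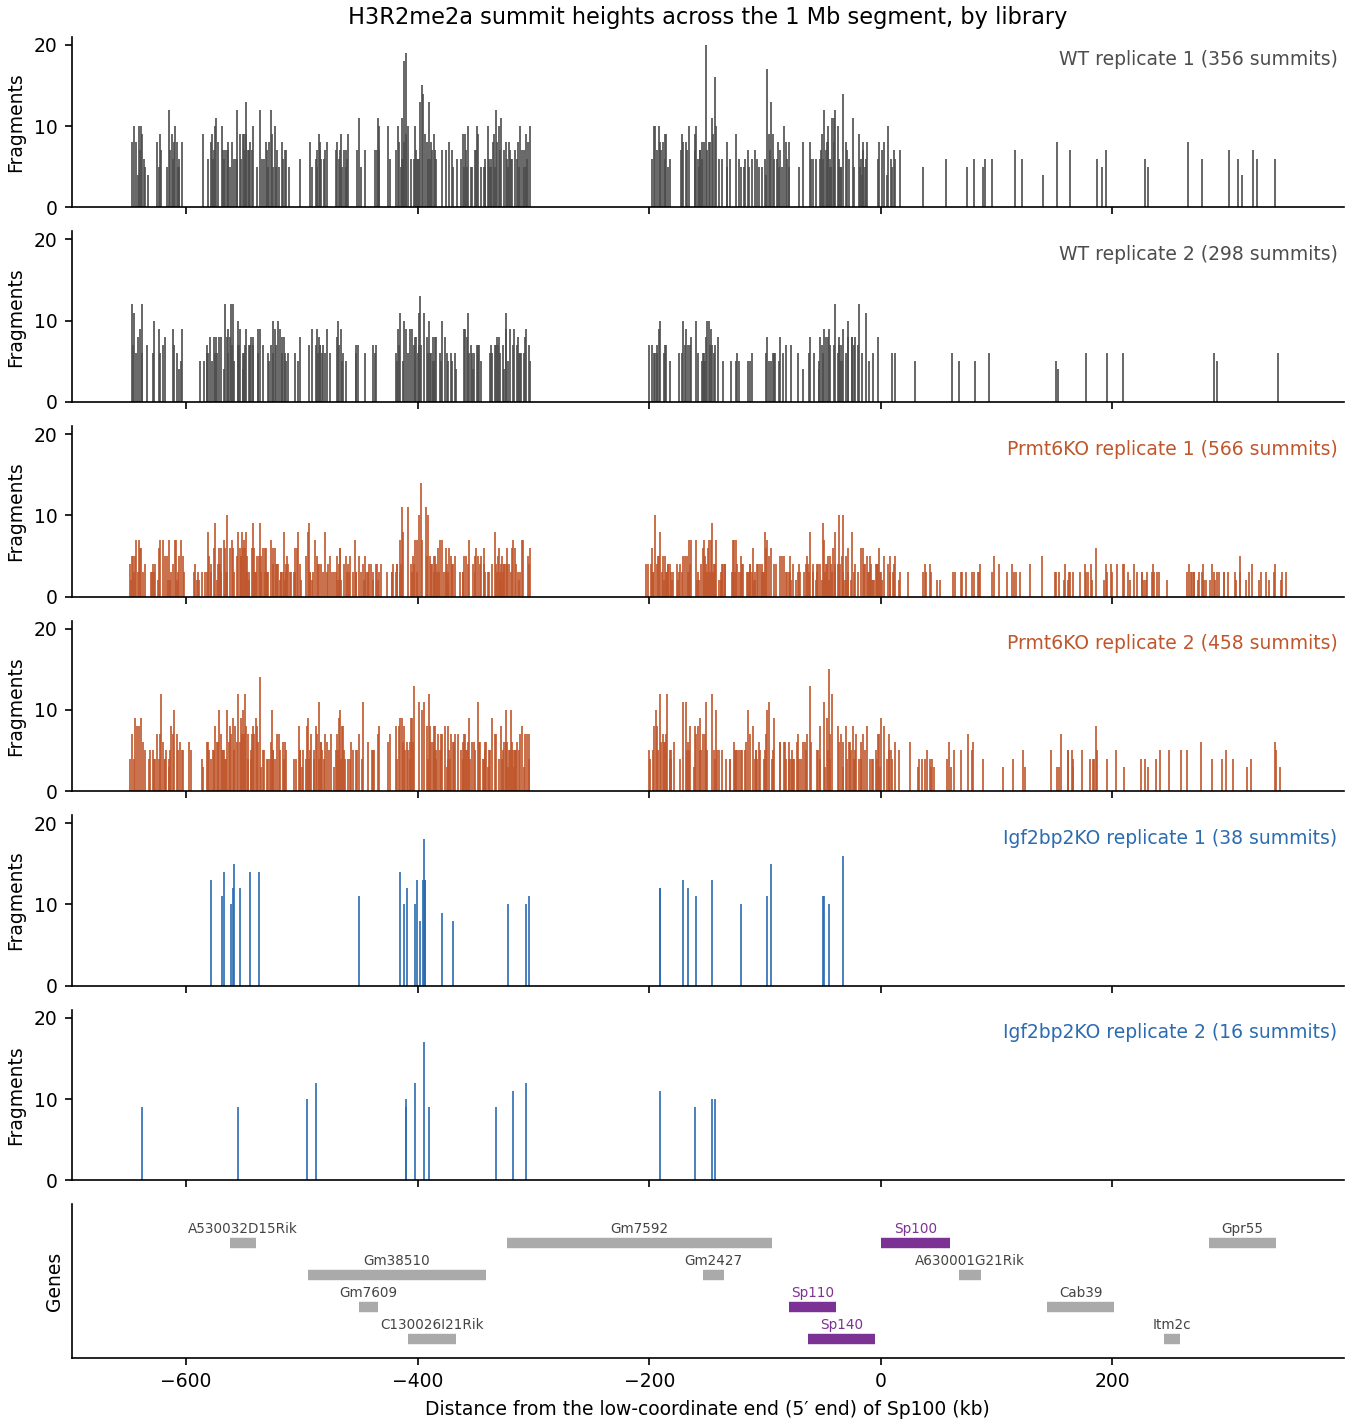
Every summit of the 6 lists in the 1 Mb segment, 1 panel per library, with its height in fragments against the distance from the start of Sp100 in kb; the lowest panel shows the protein-coding genes, with the Sp100 family in purple. The WT and Prmt6KO lists are filled from the left edge up to Sp140 and thin out within or just before Sp100, the Igf2bp2KO lists have scattered summits that end before Sp100, and 1 empty stretch lies in the middle in all 6 libraries.

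The dense part did not fill the segment evenly. The position that best divided a dense from a sparse side lay within Sp100 in 3 libraries, 12.1 kb past its start in WT replicate 1 and 11.9 and 12.1 kb past it in Prmt6KO. In WT replicate 2 it lay before Sp100, at -2.38 kb from its start. On the other side the dense part ran past the segment, to between 84949178 and 84958501 in these 4 libraries. In the 100 kb just inside the left edge of the segment there were 53, 51, 74, 68, 7 and 2 summits, in the order WT, Prmt6KO and Igf2bp2KO with replicate 1 first, and 23, 13, 46, 36, 1 and 0 just outside it. At the right edge there were 8, 3, 37, 12, 0 and 0 inside and 3, 5, 42, 12, 0 and 0 outside. A stretch of 100.4 kb, from 85347025 to 85447400 inside the annotated gene Gm7592, had no peak in any list, and the next longest stretch without a peak was 10.4 kb. The genome sequence of the longer stretch was not at hand, so whether reads can be placed there was not tested.

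Within the family, Sp110 and Sp140 lay inside the dense part and Sp100 at its border. Within 1 kb of Sp140 there were 40 and 35 peaks in WT, 55 and 39 in Prmt6KO, with 4 and 0 in Igf2bp2KO. Within 1 kb of Sp110 there were 24 and 18 in WT, 38 and 28 in Prmt6KO, against 3 and 0 in Igf2bp2KO. Sp100, the longest of the 3, had 11 and 3 peaks in WT, 20 and 23 in Prmt6KO, and none in the Igf2bp2KO lists. Because the genes overlap, 20 and 15 of the WT peaks counted for both Sp110 and Sp140. Together these 2 genes had 44 and 38 peaks in WT, 68 and 53 in Prmt6KO, with 4 and 0 in Igf2bp2KO. The replicates of WT were close at Sp140 and apart at Sp100.

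Set against all 9976 protein-coding genes of 20 kb or more by peaks per 10 kb, Sp140 ranked 10 and 16 in WT, 6 and 25 in Prmt6KO, and 20 in Igf2bp2KO replicate 1. Sp110 ranked 22 and 24 in WT, 7 and 23 in Prmt6KO, and 17 in Igf2bp2KO replicate 1. Sp100 ranked 226 and 3693 in WT and 4962 and 116 in Prmt6KO, so that its place differed widely between replicates. Its 3.22 peaks per 10 kb in Prmt6KO replicate 1 equalled the median of all these genes in that library, 3.22, whereas Sp110 had 9.02 and Sp140 9.24 there. The order of the 3 genes by density was not the same in every library: Sp140 led Sp110 in WT and in Prmt6KO replicate 1, and Sp110 led by 6.65 to 6.55 in Prmt6KO replicate 2 and by 0.712 to 0.672 in Igf2bp2KO replicate 1.

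Divided into stretches, the 23.4 kb that Sp110 and Sp140 share had 8.56 and 6.42 summits per 10 kb in WT, 10.3 and 5.99 in Prmt6KO, against 1.28 and 0 in Igf2bp2KO. The rest of Sp110 had 1.79 summits per 10 kb in each WT library, and 7.16 and 7.76 in Prmt6KO. The rest of Sp140 had 5.85 in each WT library, and 8.48 and 7.02 in Prmt6KO. In the gap between Sp140 and Sp100 the density was 4.08 and 2.04 in WT and 12.2 and 10.2 in Prmt6KO, from 2, 1, 6 and 5 summits. Sp100 itself had 1.83 and 0.50 in WT and 3.16 and 3.50 in Prmt6KO. From the end of Sp100 to 86 Mb the density was 0.793 and 0.414 in WT and 3.31 and 1.62 in Prmt6KO. Within WT, the shared stretch was thus denser than the rest of Sp110 in both libraries, and in Prmt6KO replicate 2 it was not.

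**Figure D3:**
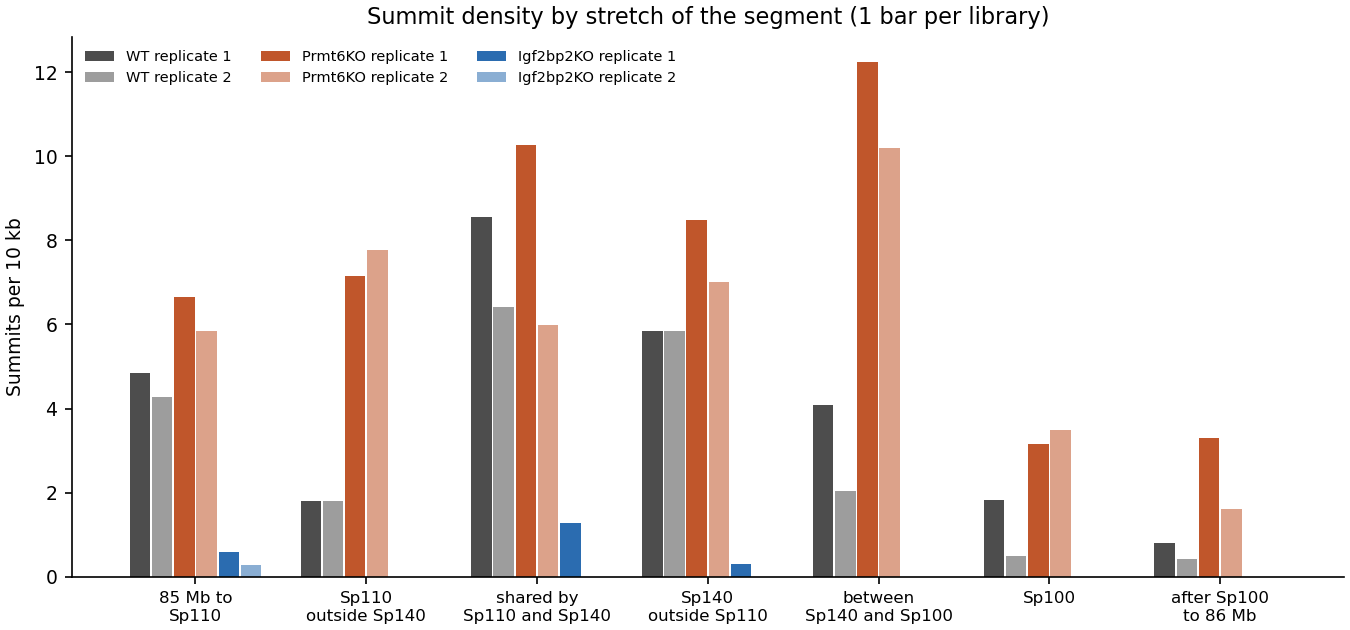
Summits per 10 kb (bars from 0, 1 bar per library) in 7 consecutive stretches of the segment, from its left edge to its right edge; no bar means no summit. The stretch shared by Sp110 and Sp140 is the densest in both WT libraries, at 8.56 and 6.42, and the Igf2bp2KO lists have no summit from the gap between Sp140 and Sp100 onwards.

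The tallest peak at Sp140 had 14 and 12 fragments in WT, 10 and 15 in Prmt6KO, and 16 in Igf2bp2KO replicate 1. At Sp110 it had 12 and 12 in WT, 9 and 15 in Prmt6KO, and 11 in Igf2bp2KO replicate 1. At Sp100 it had 10 and 6 in WT and 5 and 9 in Prmt6KO. Sp100 was thus the lowest of the 3 in each WT and Prmt6KO library. The median peak at Sp110 and Sp140 had 7 to 7.5 fragments in WT and 4 to 6 in Prmt6KO. As multiples of the background of each library, the medians overlapped, at 4.79 to 5.13 in WT and 4.55 to 5.43 in Prmt6KO. Peaks with a q of 0.05 or below numbered 10 and 7 at Sp140, 6 and 3 at Sp110, and 1 and 0 at Sp100 in WT. In Prmt6KO they numbered 7 and 10, 4 and 6, and 0 and 2, and the Igf2bp2KO lists had none at the 3 genes. The Igf2bp2KO pileups were scaled, so their q-values do not compare with those of the other lists. The Igf2bp2KO replicate 1 peak of 16 fragments at Sp140, 11.0 times the background, missed that q. A WT replicate 1 peak of 9 fragments there, 6.16 times the background, passed it.

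The 4 peaks that Igf2bp2KO replicate 1 had at the family fell on 3 positions, each of which also had peaks in all 4 WT and Prmt6KO libraries. The first, chr1:85599089-85601632, lies in both Sp110 and Sp140 and includes the Sp140 promoter printed above. Its tallest summit had 12 and 9 fragments in WT, 9 and 11 in Prmt6KO, and 11 in Igf2bp2KO replicate 1. The Igf2bp2KO peaks there had their summits at 85600320 and 85601175, on either side of the printed promoter window. The tallest WT and Prmt6KO summits of this position also lay outside that window. The second, chr1:85604965-85605925, also lies in both genes, and had 6 and 9 fragments in WT, 5 and 15 in Prmt6KO, and 10 in Igf2bp2KO replicate 1. The third, chr1:85616597-85618348, lies in Sp140 past the end of Sp110, and had 14 and 9 fragments in WT, 10 and 6 in Prmt6KO, and 16 in Igf2bp2KO replicate 1. In fragments, the highest library was WT replicate 1 at the first position, Prmt6KO replicate 2 at the second and Igf2bp2KO replicate 1 at the third. As multiples of the background of each library, a Prmt6KO library was highest at all 3, at 12.2, 12.4 and 13.6 times, where WT reached 8.21, 6.26 and 9.58 times. The replicates of WT and of Prmt6KO differed at each position.

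**Figure D4:**
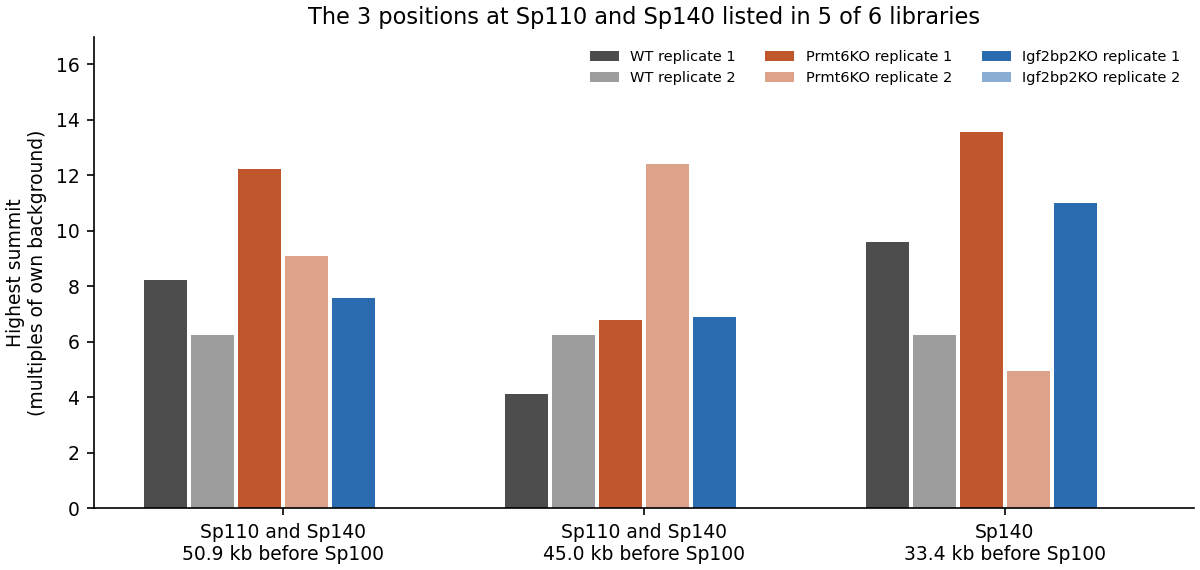
Height of the tallest summit, as multiples of the background of its library (bars from 0), at the 3 positions of Sp110 and Sp140 that were listed in 5 of the 6 libraries; 1 bar per library, labelled by distance to Sp100. Igf2bp2KO replicate 2 has no bar, and the replicates of Prmt6KO differ most at the second and the third position, at 6.79 against 12.4 and 13.6 against 4.96.

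Positions recurred between libraries more in the segment than around it. Merged over the 6 lists, its peaks formed 644 intervals, of which 125 (19.4%) had a peak in all 4 WT and Prmt6KO libraries. In the flanks this held for 0.653% of 5360 intervals. Intervals found in a single library made up 51.7% in the segment and 87.9% in the flanks. The segment had 46 intervals with peaks in both Prmt6KO libraries and in neither WT library (7.14%, against 5.39% in the flanks), and 6 with the reverse (0.932%, against 0.205%). Density alone raises such sharing, and the share due to it was not tested. The 7 intervals with peaks in all 6 libraries lay left of the family, 3 of them in C130026I21Rik and 4 in Gm7592, and the widest, chr1:85248475-85257145, had 15, 13, 14, 11, 18 and 17 fragments. Another, chr1:85237346-85243561, had 19, 10, 11, 8, 12 and 10 fragments.

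Replicates of a genotype shared peaks to unequal degrees. In the segment, 52.8% of the peaks of WT replicate 1 overlapped a peak of WT replicate 2 by at least 1 bp, and 63.1% the other way round. In Prmt6KO the shares were 58.8% and 70.1%, and in Igf2bp2KO 10.5% and 18.75%. In the flanks they were 12.4% and 19.04% in WT, 11.5% and 24.7% in Prmt6KO, with 36.4% and 62.5% in Igf2bp2KO, where the window from 88 to 89 Mb held nearly all peaks. The Igf2bp2KO peaks overlapped the longer lists far more often than each other: of the 38 peaks of replicate 1, 32 overlapped WT replicate 1, 32 WT replicate 2, 37 Prmt6KO replicate 1 and 35 Prmt6KO replicate 2, and 4 overlapped the other Igf2bp2KO list. Peaks cover 15.6% and 12.8% of the segment in WT and 27.1% and 22.2% in Prmt6KO, against 1.23% and 0.449% in Igf2bp2KO, which bears on each of these shares.

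**Figure D5:**
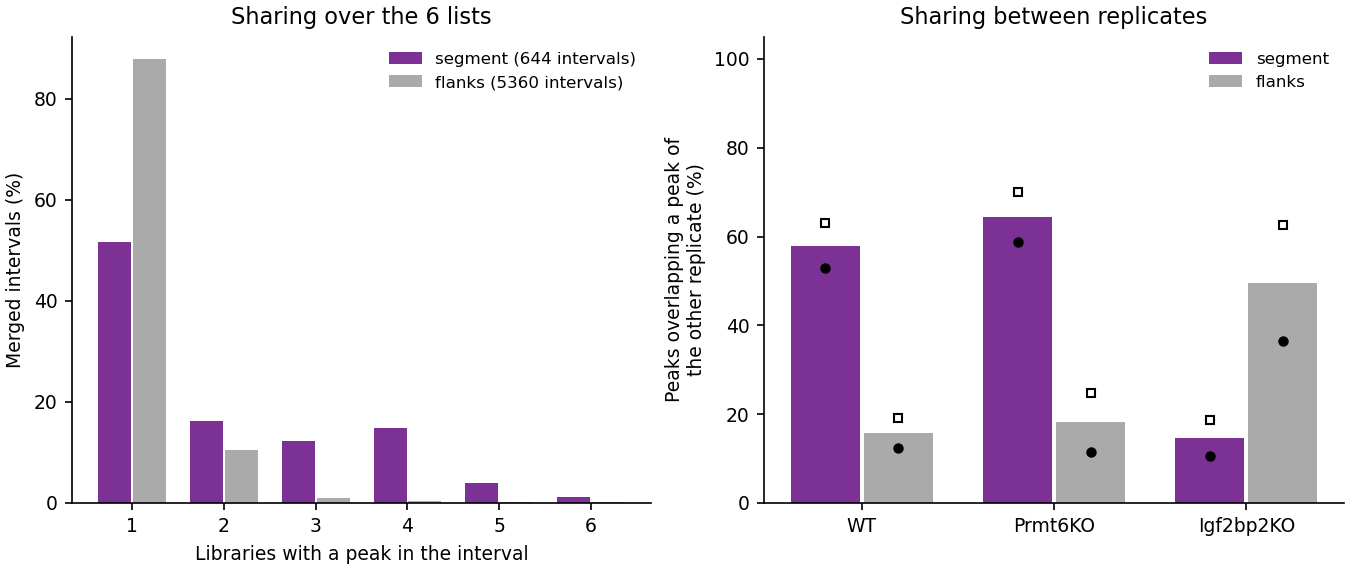
Left, the percentage of merged peak intervals by the number of libraries with a peak in them, for the segment (purple, 644 intervals) and the flanks (grey, 5360 intervals). Right, the percentage of peaks that overlap a peak of the other replicate, with bars for the mean of both directions, dots for the share of replicate 1 and squares for that of replicate 2; the segment is above the flanks in WT and Prmt6KO and below them in Igf2bp2KO.

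A gene was called in a genotype when both libraries had a peak within 1 kb of either end of the gene. Of the 13 protein-coding genes of the segment, 8 were called in WT, where 3.56% of all 21631 genes were. Sp110 and Sp140 were among them, with A530032D15Rik, C130026I21Rik, Gm2427, Gm38510, Gm7592 and Gm7609. In Prmt6KO the same 8 and Sp100 were called, where 29% of all genes were. In Igf2bp2KO no gene of the segment was called, where 0.208% of all genes were. The segment was chosen on these lists, so nothing is read from its excess over all genes.

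Sp110, Sp140, Gm2427 and Gm38510 were called in WT and had no gene-end peak in either Igf2bp2KO list, a pattern that 3.31% of all genes had. Of the 770 genes called in WT by gene ends, 716 had this pattern, beside 4 of the 8 in the segment. The pattern was thus usual among called genes. By peaks anywhere in the gene or within 1 kb of it, the picture at Sp110 and Sp140 was different, since Igf2bp2KO replicate 1 had the peaks described above. By this wider rule 12 of the 13 genes were called in WT (38.6% of all genes), 13 in Prmt6KO (73%) and 5 in Igf2bp2KO (0.356%), namely A530032D15Rik, C130026I21Rik, Gm2427, Gm38510 and Gm7592. Sp100, Cab39, Gpr55 and A630001G21Rik were then the genes called in WT and without a peak in either Igf2bp2KO list, as were 38% of all genes. Whether Sp110 and Sp140 had a peak in an Igf2bp2KO list thus depended on the part of the gene that was counted. At Sp100 the difference between WT and Prmt6KO by gene ends came from WT replicate 2, since WT replicate 1 had a peak of 7 fragments 0.892 kb past its start.

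The genes after Sp100 had low peak numbers in WT and more in Prmt6KO, where Cab39 and Gpr55 reached those of Sp100 in replicate 1. Cab39, which encodes a scaffold protein that activates the kinase LKB1, had 5 and 4 peaks in WT and 21 and 16 in Prmt6KO. Gpr55, a lipid receptor, had 6 and 2 in WT and 22 and 8 in Prmt6KO, and A630001G21Rik had 2 and 2 in WT and 8 and 4 in Prmt6KO. At each of the 3, WT summits reached 8 fragments at most. All genes of 20 kb or more also rose, from medians of 0.503 and 0.362 peaks per 10 kb in WT to 3.22 and 1.37 in Prmt6KO. Cab39 had 0.831 and 0.665 per 10 kb in WT and 3.49 and 2.66 in Prmt6KO. Gpr55 had 0.994 and 0.331 in WT and 3.64 and 1.33 in Prmt6KO. More peaks in Prmt6KO are thus not particular to these genes. Itm2c, which encodes an integral membrane protein, had no peak in WT and 1 and 2 in Prmt6KO. To the left of the family, C130026I21Rik had 27 and 34 peaks in WT, 37 and 36 in Prmt6KO, with 10 and 3 in Igf2bp2KO. A530032D15Rik, whose promoter is the near copy of that of Sp140, had 19 and 20 in WT, 24 and 24 in Prmt6KO, against 5 and 1 in Igf2bp2KO. Gm7609, the counterpart of Sp100, had 7 and 5 in WT, 15 and 9 in Prmt6KO, with 1 and 0 in Igf2bp2KO. Gm2427 had 12 and 15 in WT, 21 and 12 in Prmt6KO, against 1 and 2 in Igf2bp2KO. The 2 longest, Gm38510 and Gm7592, had 89 and 82 and 81 and 64 peaks in WT.

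The other genes of the pathway were taken from a list by known role. Of its 55 interferon receptor and signalling, interferon-induced, nuclear body and SAND domain genes, 53 matched the gene table and Mx1 and Mx2 did not. By gene ends, 2 of the 53 (3.77%) were called in WT, beside 3.56% of all genes. These were Ifit2, which encodes an antiviral protein that binds RNA, with fold enrichments of 2.84 and 2.87, and Ifi205, a gene of the interferon-inducible p200 family, with 2.84 and 3.28. In Prmt6KO 14 of the 53 (26.4%) were called, beside 29% of all genes, and in Igf2bp2KO none, beside 0.208%. By class, the Prmt6KO calls were 2 of 14 receptor and signalling genes, 10 of 29 interferon-induced genes, 1 of 6 nuclear body genes and 1 of 4 SAND domain genes. Called in Prmt6KO and without a gene-end peak in either WT library were 5 of the 53 (9.43%), beside 18.6% of all genes. By peaks anywhere in the gene or within 1 kb of it, 19 of the 53 (35.8%) were called in WT, beside 38.6% of all genes, 44 (83.0%) in Prmt6KO, beside 73%, and none in Igf2bp2KO, beside 0.356%. The list was thus close to all genes in WT, and in Prmt6KO above or below them depending on the rule; these differences were not tested.

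A summit at 6 times the background or more lay within 1 kb of 4 and 1 of the 53 genes in WT, beside 5.62% and 2.78% of all genes. In Prmt6KO it did so for 19 and 2 of the 53, beside 40.8% and 5.76%, and in Igf2bp2KO for none, beside 0.425% and 0.527%. Pml, the gene for the core protein of the nuclear bodies that SP100 joins, had 3 and 0 peaks in WT with summits up to 4.11 times the background. Aire, another gene with a SAND domain, had none in WT. These values lie below the 8.21 and 8.34 times of Sp110.

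By the tallest summit over background in each of the 6 libraries, Sp140 was close to Sp110, at a Euclidean distance of 0.545 in log2(1 + multiple), and Sp100 was further away, at 3.38. Outside the segment the 5 nearest genes to Sp110 were Hsf3 at 0.401, Grid1 at 0.641, 4931408C20Rik at 0.651, Peak1 at 0.819 and Gm4981 at 1.06. The distance counts the Igf2bp2KO lists, so that genes with a peak in replicate 1 and none in replicate 2, as at Sp110, are favoured by it. Hsf3, a heat shock factor gene, had summits of 8.21 and 6.95 times the background in WT, 10.9 and 10.8 times in Prmt6KO, and 8.95 times in Igf2bp2KO replicate 1. The corresponding values of Sp110 were 8.21, 8.34, 12.2, 12.4 and 7.58. Hsf3 lies on chromosome X, where the peak density of WT replicate 1 was 0.182 of that on its other chromosomes. The likeness is over 6 libraries and describes heights alone.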

How the data were processed

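Peak lists of 6 H3R2me2a ChIP-seq libraries, 1 list per library, were analysed. MACS2 2.1.0, HISAT2, Trim Galore, bedtools, bcl2fastq 2.17 and the build mm10 are listed, without settings, per the submitters' processing notes. Per the file headers, the authors' peak tables give the pileup at each summit, a coverage signal. The deposited lists give the fold enrichment, a ratio, and the −log10 of the p-value and of the q-value. In each list the fold equalled pileup plus 1 over background plus 1, with 1 background for all peaks, and this gave the background. The Igf2bp2KO pileups were multiples of 0.277 and 0.302 and were divided by these steps, which gave fragments. The 2 tables of a library agreed on every peak. Read totals are not given in the sources used here.

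Peaks were assigned by summit, and overlaps needed 1 bp. Genes came from the RefSeq table of GRCm38.p6 (21631 protein-coding genes on chromosomes 1 to 19 and X), which gives neither exons nor strand. Promoter sequences are RefSeq's for the same build. Edges of the dense part are the split with the highest Poisson likelihood. Libraries were compared with exact permutation tests (Python 3.11.15, numpy 2.4.6, pandas 2.3.3, scipy 1.17.1). The procedures were tested on simulated data. Counting intervals are not given, as the values are single-list descriptions.

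The genes named are the 3 of the family, the genes of the segment with peaks within 1 kb in both libraries of 2 or more genotypes (all 13 except Itm2c, which was added after its values were seen), the list members called in WT and the 5 genes nearest to Sp110. Pml and Aire were also added after their values were seen. The segment, the members and the gene lists were chosen with earlier results of these data known. Alternatives covered the peak threshold, the flanks, the height measure, the gene window, the overlap, each library in turn and the replicate number as a block. Flanks without the window from 88 to 89 Mb, a threshold of 9 fragments and heights without division by background were added after seeing the data.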

Additional observations from a re-analysis of the deposited data

How the results depend on the processing

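The lower relative density of the segment in Prmt6KO kept its direction under each alternative, from -0.13 for peaks with a q of 0.05 or below to -1.55 without the window from 88 to 89 Mb (log2). For summits of 9 fragments or more it was -0.23. Leaving out 1 library gave -1.03 to -1.80. The difference of Igf2bp2KO in density, 0.43, reversed to -1.43 for summits at 6 times the background, to -1.43 for summits of 9 fragments or more and to -0.38 for bases covered. It was 1.51 with that threshold of 9 fragments and without the window from 88 to 89 Mb, 4.08 with flanks of 2 Mb, and 0.25 to 0.62 when 1 library was left out. The height difference of Prmt6KO, 0.47, reversed to -0.15 in fragments and was 0.16 to 0.77 with 1 library left out. Within 1 kb of the 3 genes it was 0.54 (p = 0.333, exact permutation, the smallest possible). There the tallest summits did not overlap, at 9.58 and 8.34 times the background in WT and 13.6 and 12.4 times in Prmt6KO. The height difference of Igf2bp2KO, 0.18, reversed to -0.073 for the median of the 5 highest summits and to -0.70 in the authors' fold enrichment, a scaled unit in these lists. With 1 library left out it was -0.12 to 0.48, the negative value without WT replicate 2.

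The mean overlap of replicates in the segment was 57.9% in WT and 64.5% in Prmt6KO. Requiring 50% of the shorter peak gave 47.0% and 51.8%, summits at 6 times the background gave 37.9% and 53.2%, and a q of 0.05 or below gave 37.9% and 49.1%. Genes called in Igf2bp2KO went from 0 to 5 when whole genes were counted. Within the family, the q threshold cut the WT counts at Sp140 from 40 and 35 to 10 and 7. The causes of these shifts were not tested, beyond the fewer peaks each threshold leaves. The q threshold gave no density or overlap value for Igf2bp2KO, which has no such peak in the segment, and the height at the 3 genes gave none since replicate 2 has no peak there.

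With the replicate number as a block, the mean differences were unchanged at -1.41 and 0.43 for density and 0.47 and 0.18 for height, with exact sign-flip p of 0.5 for the first 3 and 1 for the last, where 0.5 is the smallest possible. Deviations of same-numbered libraries over 110 bins correlated at 0.02 for WT and Prmt6KO, -0.08 for WT and Igf2bp2KO, and -0.34 for Prmt6KO and Igf2bp2KO. With 2 libraries per genotype and few Igf2bp2KO summits, these values cannot tell whether libraries of the same number share a batch. Summits hold at most 20 fragments, so a difference of a few fragments between libraries is near the counting error.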

Other observations

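From 85 Mb to the end of Sp140, neighbouring summits lay a median of 1150 and 1294.5 bp apart in WT, 984 and 1098 bp in Prmt6KO, and 5848 and 12418 bp in Igf2bp2KO. The spacing across the empty stretch of 100.4 kb was left out in each library. The Igf2bp2KO lists ended within the dense part, with no summit past -32.5 kb from the start of Sp100 in replicate 1 or past -143 kb in replicate 2. Of the merged intervals of the segment, 25 had a peak in 5 of the 6 libraries, and the 3 at Sp110 and Sp140 were among them.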
